A study of Drosophila melanogaster with 9 samples.

Results

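Mnt overexpression in adult fly muscle was set against control muscle over 6 of the 9 arrays of the study, which were the 3 Mnt arrays and the 3 control arrays. All 11982 genes with a usable probe set were described. The arrays were chosen by their sample titles alone. The remaining 3 arrays came from muscle overexpressing Foxo and entered the statistical fit, which estimates 1 spread from all groups together. No single gene passed the threshold between Mnt and control muscle. The largest shift by far was that of the Mnt transcript itself. Below it lay small differences in genes of ribosome production, mitochondrial protein import, glutathione metabolism and muscle excitability, none of which passed. Ribosome biogenesis genes were mostly lower in Foxo muscle as well. The glutathione list lost its direction without control replicate 1, and the muscle excitability list did so once each array was centred on its median. Of the import genes 57.1% were lower, against 50.5% of all genes, in a list that counts paralogs as well.

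RNA came from skeletal muscle of male *Drosophila melanogaster*, from at least 15 flies per group, and was hybridised to Affymetrix Drosophila Genome 2.0 arrays, 1 array per sample. Flies of the Mnt group carried UAS-Mnt, flies of the Foxo group carried UAS-Foxo, and the third group was labelled control with no further genotype. Expression was muscle-specific per the title of the study. The sources used here do not give the driver line, the genotype of the control, the age at dissection or the dissection itself. Per the labels, the 3 samples of a group were independent biological replicates.

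Mnt is a basic helix-loop-helix leucine zipper protein that pairs with Max on E-box DNA and represses transcription. Myc pairs with the same partner, binds similar sites and activates them, and in flies it drives growth largely through ribosome production. Mnt and Myc therefore act against each other at shared targets, and in flies extra Mnt is known to reduce cell growth.

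All values are RMA signals on the log2 scale, where a difference of 1 is a doubling. RMA equalises probe signals between arrays before it summarises them by probe set, and a rise or fall of nearly all transcripts at once would be largely removed. The median probe set signal of an array still ran from 5.72 to 5.90 in the Mnt arrays, against 5.71 to 5.85 in the controls. Signals were compared between arrays, never between probe sets. Fold changes are Mnt minus control with limma's standard error, and the threshold was an adjusted p under 0.05 (Benjamini-Hochberg, all 11982 genes). In whole muscle, fewer cells of a type and less RNA per cell cannot be told apart.

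The Mnt probe set lay at 9.85, 11.69 and 11.71 in Mnt replicates 1, 2 and 3, against 8.41, 8.57 and 8.45 in control replicates 1, 2 and 3. Every Mnt array was above every control, and replicate 1 stood well below the other Mnt arrays. The fold change was 2.61 ± 0.43 (SE, n = 3 per group), or 6.1 times, with a limma adjusted p of 0.450. Without Mnt replicate 1 it was 3.22 with an adjusted p of 5.21e-06. Mnt has 1 probe set here, and the sources used here do not say if it detects the transgene as well as the native transcript.

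Max, the shared partner of Mnt and Myc, lay at 8.86, 8.67 and 8.61 in the Mnt arrays, against 8.90, 8.89 and 8.998 in the controls. Mondo, which with its own partner bigmax senses sugars, lay at 9.58, 9.51 and 9.61 in the Mnt arrays, against 9.82, 9.74 and 9.73 in the controls. For both genes all Mnt arrays were below all controls. The fold change of Max was -0.22 ± 0.08 (SE, n = 3 per group) and that of Mondo -0.20 ± 0.06, and neither passed (limma adjusted p = 0.999 for each). bigmax had -0.19 ± 0.13 with overlapping groups, at 9.25, 9.09 and 8.95 in the Mnt arrays, against 9.37, 9.09 and 9.39 in the controls. Foxo minus control, with the same controls, was -0.16 for Max, -0.02 for Mondo and -0.10 for bigmax.

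The other measured genes of this network overlapped between the groups. Among corepressors, the deacetylase gene HDAC1 had -0.13 ± 0.19 and gro, the Groucho corepressor, -0.09 ± 0.06. The chromatin partners of fly Myc were close to 0 as well, with -0.02 ± 0.09 for the acetyltransferase Tip60, -0.09 ± 0.13 for pont, -0.08 ± 0.10 for rept, 0.02 ± 0.08 for the demethylase Kdm5 and 0.12 ± 0.08 for ash2. Regulators of Myc protein had -0.03 ± 0.08 for ago, an F-box protein, 0.13 ± 0.13 for brat, a translational repressor with a dim signal, and -0.02 ± 0.13 for puf, a deubiquitinase. Of the 14 measured members 4 were higher and 10 lower (71.4%, against 50.5% of all genes), with a median of -0.06. In Foxo minus control 10 of the 14 were lower as well, with a median of -0.06, where 7497 of all 11982 genes were lower. Myc itself was not analysed here.

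**Figure D1:**
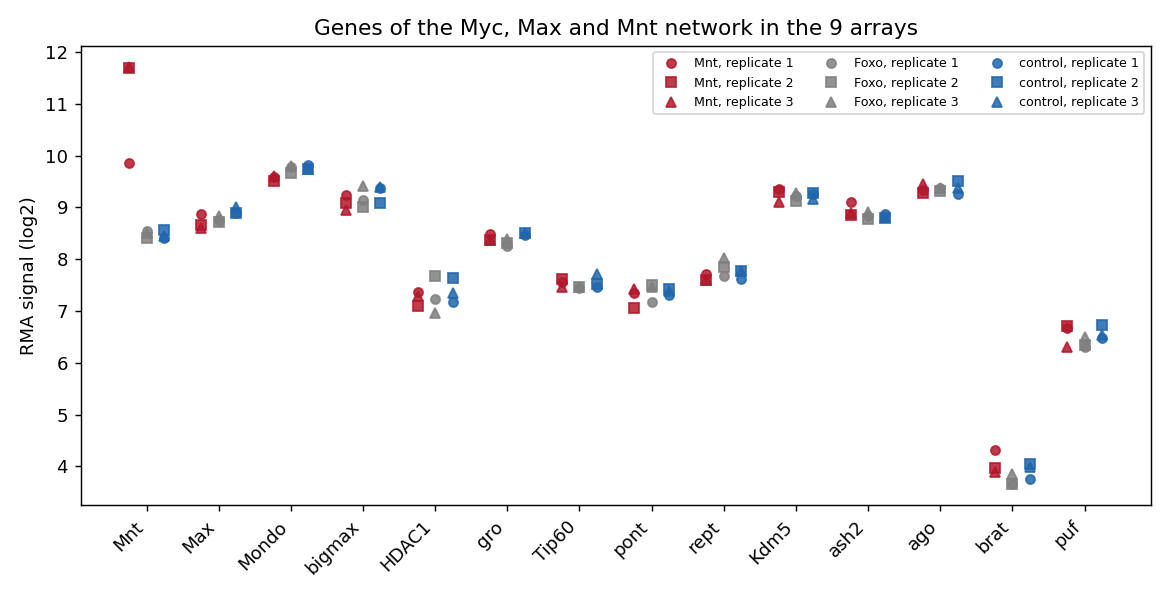
RMA signal on the log2 scale (vertical axis) of the 14 measured network genes (horizontal axis) in Mnt arrays (red), Foxo arrays (grey) and control arrays (blue), with 1 point per array and a symbol per replicate number. Mnt replicate 1 lies at 9.85 for the Mnt gene, below Mnt replicates 2 and 3 and above all other arrays, and Max and Mondo are the other genes whose Mnt and control arrays do not overlap.

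Across all genes limma called 0 of 11982 (0%). An unadjusted p under 0.05 was found for 424 genes (3.54%), where 599.1 would be expected by chance, with 189 higher (1.58%) and 235 lower (1.96%) in the Mnt arrays. Groups did not overlap for 1068 genes (8.91%), of which 440 (3.67%) were higher and 628 (5.24%) lower. The middle of the distribution was narrow, with a median fold change of 0.00, a 5th percentile of -0.20 and a 95th percentile of 0.35.

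A fold change beyond 1 in either direction was found for 28 genes, 13 higher and 15 lower, and 5 of these had groups that did not overlap. These 5 were Mnt, phu, the glutathione S-transferase gene GstD2, the eye arrestin gene Arr1 and EbpII, an ejaculatory bulb protein gene. The gene phu lay at 10.27, 11.33 and 9.25 in the Mnt arrays, against 9.08, 8.96 and 7.77 in the controls, with a fold change of 1.67 ± 0.55 (SE, n = 3 per group). It was 0.73 for phu without Mnt replicate 2 and control replicate 3. GstD2 lay at 6.60, 6.45 and 8.41 in the Mnt arrays, against 5.89, 5.93 and 6.00 in the controls, so its size came mostly from Mnt replicate 3. In EbpII the difference came from a single control, since all arrays lay between 3.06 and 3.26 except control replicate 3 at 6.30. Arr1 lay at 5.80, 4.73 and 6.57 in the Mnt arrays, against 6.72, 6.84 and 6.63 in the controls, and was lowest in Mnt replicate 2.

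The genes with the lowest p in each direction were taken among those of at least median signal whose groups did not overlap, so that the separation of the groups in them is part of how they were chosen. On the higher side, CG32195 came first at 8.54, 8.67 and 8.78 in the Mnt arrays, against 7.996, 8.15 and 7.83 in the controls. chk, which encodes chaski, a monocarboxylate transporter, lay at 11.47, 11.46 and 11.62 in the Mnt arrays, against 11.11, 11.16 and 11.06 in the controls. Mnt replicates 1 and 2 lay together in chk and replicate 3 was the highest. Fold changes were 0.67 ± 0.10 for CG32195 and 0.41 ± 0.06 for chk (SE, n = 3 per group, limma adjusted p = 0.288 for both). The second, dim probe set of chk had 0.09. At the probe sets used, Foxo minus control was 0.33 for CG32195 and 0.10 for chk.

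Gyf, the fly counterpart of mammalian GIGYF proteins, which repress translation, lay at 13.04, 13.11 and 13.08 in the Mnt arrays, against 12.74, 12.85 and 12.79 in the controls. The glutathione S-transferase gene GstD9 lay at 10.93, 10.49 and 10.58 in the Mnt arrays, against 10.02, 9.998 and 10.04 in the controls, and here Mnt replicate 1 was the highest array. Gyf had a fold change of 0.28 ± 0.05 and GstD9 of 0.65 ± 0.11 (SE, n = 3 per group), each with a limma adjusted p of 0.460. CG5377 had 0.61 ± 0.11, CG2076 0.42 ± 0.08 and Csas, which encodes CMP-sialic acid synthase, 0.54 ± 0.11. The zinc finger gene l(3)neo38 had 0.50 ± 0.10 at the probe set used, while its 3 other probe sets had 0.03, 0.10 and -0.12.

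Arc2, a relative of the neuronal gene Arc that derives from a retrotransposon capsid gene, lay at 8.85, 8.64 and 9.04 in the Mnt arrays, against 7.78, 8.18 and 8.01 in the controls. Its close relative Arc1, whose protein forms capsids at the fly neuromuscular junction, lay at 13.00, 12.76 and 12.50 in the Mnt arrays, against 12.27, 12.08 and 12.15 in the controls. Both genes thus separated the groups in the same direction. Fold changes were 0.85 ± 0.16 for Arc2 (limma adjusted p = 0.549) and 0.59 ± 0.13 for Arc1 (adjusted p = 0.897, SE, n = 3 per group). Arc1 and the activity-regulated genes Hr38 (0.50 ± 0.40) and sr (0.07 ± 0.09) were picked after values were seen. As near copies, Arc1 and Arc2 may share probe signal, which was not tested.

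Arc2 differed between the overexpression groups by limma's test of Mnt minus Foxo, with 1.34 ± 0.16 (SE, n = 3 per group, adjusted p = 0.0328). Its Foxo mean was 7.502 ± 0.23 (SD, n = 3), below the lowest control at 7.78. Of the genes named here by the rule for lowest p, Arc2 alone passed in that comparison, in which 16 genes passed (0.134%). The call ended without Mnt replicate 1, 2 or 3 (adjusted p = 0.107, 0.0587 and 0.135), without Foxo replicate 1 or 2 (0.142 and 0.0945) and without control replicate 2 or 3 (0.0844 and 0.0732). The mean signal of 23 neuron and eye markers was 7.001 to 7.16 in the Mnt arrays, against 7.24 to 7.27 in the controls, and its part in the result was not tested. The largest differences in that list were those of Arr1 (-1.03) and Arr2 (-0.94), and 13 of the 23 markers were above the control mean in Mnt replicate 1.

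On the lower side, CG5569 had the lowest p of all genes, at 10.12, 10.10 and 9.98 in the Mnt arrays, against 10.55, 10.58 and 10.58 in the controls. Mal-A5, a maltase gene, lay at 11.90, 11.94 and 11.88 in the Mnt arrays, against 12.37, 12.33 and 12.49 in the controls. In both genes the Mnt arrays were tightly grouped and the gap to the controls was larger than the range within either group. The fold changes were -0.50 ± 0.06 for CG5569 and -0.49 ± 0.06 for Mal-A5 (SE, n = 3 per group), with limma adjusted p of 0.160 and 0.166. Foxo minus control gave -0.49 and -0.50 for CG5569 and Mal-A5, with the same 3 controls on the other side of both comparisons. Both genes passed limma's threshold in Foxo minus control (adjusted p = 0.034 and 0.039), where 12 of 11982 genes passed (0.1%). Mal-A5 is also a gut marker, and the mean of 36 gut markers was 7.69 to 9.05 in the Mnt arrays, against 8.05 to 9.16 in the controls, which overlap. Of 10 measured maltase genes, a list made after values were seen, 8 were lower with a median of -0.18, and Mal-A5 was the one with an unadjusted p under 0.05.

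CG13144 lay at 7.25, 7.03 and 7.21 in the Mnt arrays, against 7.72, 7.88 and 7.74 in the controls. PGRP-SB1, an immune-inducible peptidoglycan recognition amidase gene, lay at 10.21, 10.19 and 10.09 in the Mnt arrays, against 10.54, 11.16 and 10.83 in the controls. The Mnt arrays were close together in PGRP-SB1, and the controls were spread more widely. CG13144 had -0.61 ± 0.09 (limma adjusted p = 0.288) and PGRP-SB1 -0.68 ± 0.14 (adjusted p = 0.696, SE, n = 3 per group). Foxo minus control for CG13144 was 0.03, and its Mnt minus Foxo adjusted p was 0.0550, outside the threshold. For PGRP-SB1 Foxo minus control was -0.30.

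Next among the lower genes of lowest p, Tom20, a receptor on the outer membrane for proteins entering mitochondria, lay at 10.25, 10.28 and 10.27 in the Mnt arrays, against 10.52, 10.64 and 10.56 in the controls. TFAM, which packages mitochondrial DNA and starts its transcription, lay at 9.40, 9.41 and 9.38 in the Mnt arrays, against 9.65, 9.70 and 9.63 in the controls. In both, the Mnt arrays differed less from each other than from any control. The translation termination factor gene eRF1 lay at 9.93, 9.86 and 9.92 in the Mnt arrays, against 10.10, 10.13 and 10.16 in the controls. The gene ras (raspberry, the IMP dehydrogenase of guanine nucleotide synthesis) lay at 10.67, 10.55 and 10.70 in the Mnt arrays, against 10.91, 10.92 and 10.99 in the controls. Polr2E, a subunit shared by the nuclear RNA polymerases, lay at 8.56, 8.46 and 8.42 in the Mnt arrays, against 8.72, 8.77 and 8.83 in the controls.

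The differences of these genes were small, at -0.30 ± 0.05 for Tom20, -0.26 ± 0.04 for TFAM, -0.23 ± 0.05 for eRF1, -0.30 ± 0.06 for ras and -0.29 ± 0.06 for Polr2E (SE, n = 3 per group), with limma adjusted p between 0.288 and 0.918. In linear terms Tom20 was 1.23 times lower and TFAM 1.20 times lower in the Mnt arrays. CG31301 completed the 10 at -0.45 ± 0.10. The genes of largest size added by the rule were CG3397 (-0.56 ± 0.17), Smyd4-3 (-0.52 ± 0.20) and the zinc finger gene jim (-0.68 ± 0.24), and the 2 other probe sets of jim had 0.06 and 0.20. Foxo minus control was -0.10 for CG3397, -0.22 for Smyd4-3 and -0.74 for jim. With the same controls, it was -0.27 for Polr2E, -0.17 for TFAM and -0.22 for CG31301. For Tom20, ras and eRF1 it was -0.05, -0.01 and 0.08.

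**Figure D2:**
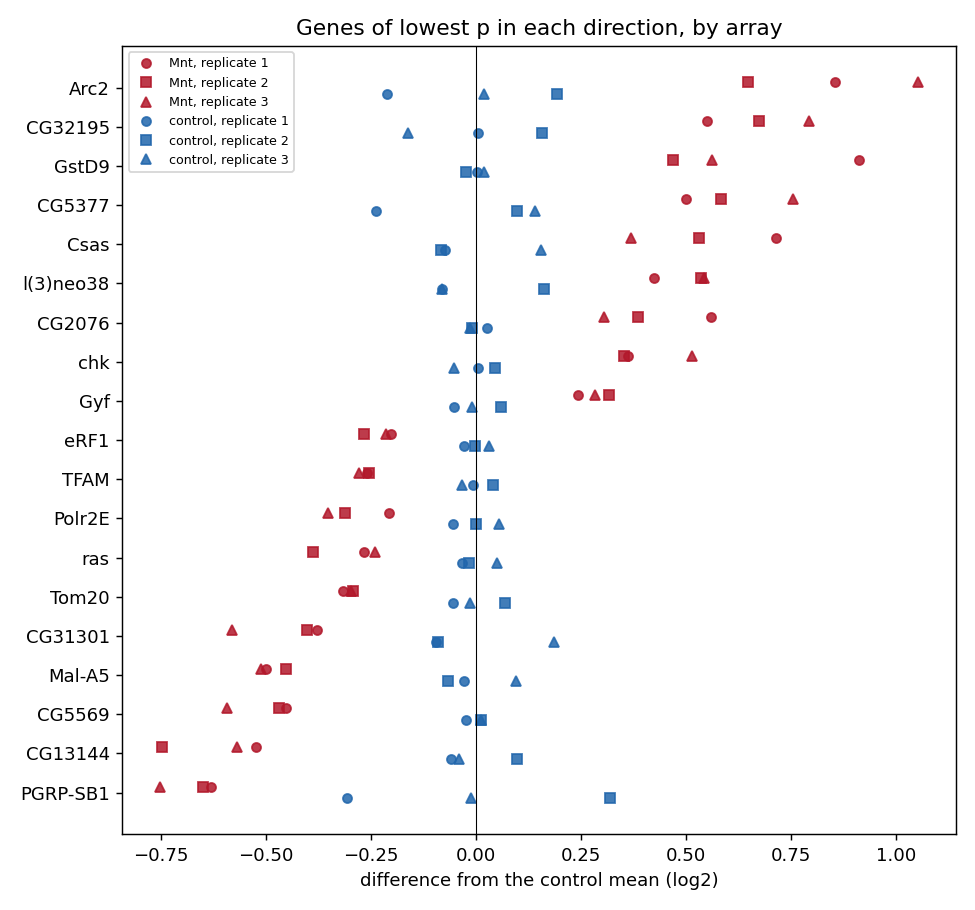
Difference of each array from the mean of the 3 controls on the log2 scale (horizontal axis) for the 19 genes of lowest p besides Mnt (vertical axis), with Mnt arrays in red, controls in blue and a symbol per replicate number. The rule that chose the genes required the red and blue points of a gene to be apart, and Mnt replicate 1 (circles) is on the same side as the other Mnt arrays in all of them.

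In these 19 genes Mnt replicate 1 was not set apart the way it was in the Mnt transcript. Its difference from the controls, divided by the mean difference of Mnt replicates 2 and 3, had a median of 0.85 over the 19 genes and ran from 0.626 to 1.77. The same ratio was 0.427 for the Mnt transcript and 0.116 for the median of the ribosome biogenesis genes described next. The 19 genes were chosen for low p and no overlap, which favours genes with like values in the 3 Mnt arrays.

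Genes of ribosome production had a lower mean in the Mnt group than in the controls in nearly every case, by small amounts. The median difference of ribosome biogenesis genes in Mnt replicate 1 was only -0.02. Of 59 measured ribosome biogenesis genes 56 had a fold change below 0, or 94.9%, where 50.5% of all genes did. The median was -0.12, against 0.00 over all genes, and none passed limma's threshold. Foxo minus control, with the same controls, gave 54 of the 59 genes lower with a median of -0.11. Of all 11982 genes, 7497 were lower in that comparison, with a median of -0.06. An unadjusted p under 0.05 was found for 7, all lower, or 11.9% against 3.54% of all genes. Groups did not overlap for 10 lower genes (16.9%, against 5.24% of all genes) and for 1 higher gene, Noc2 (1.69%, against 3.67%). Members of a list were measured on the same arrays and are not independent replicates.

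Tsr1, which matures the small ribosomal subunit, lay at 8.08, 8.01 and 7.85 in the Mnt arrays, against 8.25, 8.21 and 8.25 in the controls. Rrp5, needed for early cleavages of the ribosomal RNA precursor, lay at 7.84, 7.46 and 7.45 in the Mnt arrays, against 7.85, 7.80 and 7.99 in the controls. Mnt replicate 1 was the highest Mnt array in both, and in Rrp5 it was inside the range of the controls. The fold changes were -0.26 ± 0.07 for Tsr1 and -0.30 ± 0.11 for Rrp5 (SE, n = 3 per group). The others with an unadjusted p under 0.05 included bys, another small subunit factor (-0.21 ± 0.09), the exosome subunit gene Rrp4 (-0.25 ± 0.10), Rtc1 (-0.18 ± 0.08) and CG30349 (-0.27 ± 0.10).

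The ribosome biogenesis shift differed among arrays of a group. Below the control mean were 35, 54 and 57 of the 59 genes in Mnt replicates 1, 2 and 3, with median differences of -0.02, -0.15 and -0.23. In percent these were 59.3, 91.5 and 96.6, where 45.5, 50.1 and 60.1 percent of all genes lay below the control mean in the same arrays. The Foxo arrays had 48, 44 and 47 of the 59 genes below it, with 59.2, 58.7 and 61.7 percent of all genes. Set against the mean of the other 2 controls, control replicates 1, 2 and 3 had 44, 30 and 13 genes below, with medians of -0.07, -0.01 and 0.07 and 61.6, 49.5 and 40.6 percent of all genes below. The list and all genes thus ordered the arrays of the Mnt group and of the control group alike, and part of the spread between arrays was shared by all genes. Control replicates 1 and 3 differed from the other controls in opposite directions.

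The count was 58 of 59 lower with a median of -0.18 without Mnt replicate 1, 48 with -0.08 without Mnt replicate 3, and 54 with -0.09 without control replicate 3. The mean signal of 35 testis markers differed widely within groups, at 6.55, 5.14 and 7.37 in Mnt replicates 1, 2 and 3, against 6.92, 6.02 and 5.14 in the controls. With this testis score in the fit 55 of the 59 genes were lower, and 53 were lower, with a median of -0.10, without Mnt replicate 2 and control replicate 3, the arrays of lowest score.

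RNA polymerase I transcribes the large ribosomal RNA precursor, and its 8 measured subunits and factors were all lower, with fold changes from -0.20 to -0.01 and a median of -0.12, which was -0.06 without Mnt replicate 3. None had an unadjusted p under 0.05, and the groups did not overlap in 2 (25%, against 5.24% of all genes lower), Polr1A (-0.16 ± 0.09) and Polr1H (-0.13 ± 0.13). The initiation factor gene Tif-IA had -0.01 ± 0.09. In Foxo minus control all 8 were lower as well, with a median of -0.04. Control replicate 1 was also below the mean of the other 2 controls in 7 of these 8 genes, where Mnt replicates 1, 2 and 3 had 6, 7 and 7 below the control mean. Of 10 RNA polymerase III genes 8 were lower with a median of -0.08, and 5 were lower without Mnt replicate 2 and control replicate 3. For Foxo minus control 9 of the 10 were lower, with a median of -0.11. Maf1, the repressor of RNA polymerase III, was on the other side, at 11.09, 10.94 and 11.15 in the Mnt arrays, against 10.81, 10.89 and 10.93 in the controls (0.18 ± 0.07, SE, n = 3 per group, limma adjusted p = 0.999).

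Genes for charging tRNAs and for translation lay lower by smaller amounts. In Foxo minus control 10 of the 18 tRNA synthetase genes and 18 of the 35 translation factors were lower. Of 18 cytosolic tRNA synthetase genes 14 were lower with a median of -0.08, which leaving out Mnt replicate 3 or control replicate 3 brought to -0.04 or -0.03. The 3 with an unadjusted p under 0.05 (16.7%, against 3.54% of all genes) were LeuRS (-0.23 ± 0.07), GlyRS (-0.17 ± 0.06) and beta-PheRS (-0.20 ± 0.07). LeuRS lay at 7.89, 7.83 and 7.75 in the Mnt arrays, against 8.10, 8.06 and 7.99 in the controls, without overlap. Of 35 translation initiation, elongation and termination factors 25 were lower with a median of -0.05, which was -0.03 without Mnt replicate 3. An unadjusted p under 0.05 was found for 5 of the 35, all lower (14.3%, against 3.54% of all genes), and besides eRF1 they were eIF1 (-0.23 ± 0.07), which keeps scanning for the start codon accurate, eIF5B (-0.18 ± 0.06), eIF3j (-0.15 ± 0.06) and the cap-binding protein gene eIF4E1 (-0.13 ± 0.05, SE, n = 3 per group).

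The measured cytosolic ribosomal protein genes, a list matched by name that also holds variants such as RpL22-like and RpS28-like, gave no such direction. Of 41 cytosolic ribosomal protein genes 19 were higher and 22 lower with a median of 0.00, and RpL24-like, whose product is a ribosome assembly factor rather than a ribosomal subunit, was the one with an unadjusted p under 0.05 (-0.29 ± 0.12). With each array centred on its median the split of these 41 genes was 8 higher and 33 lower, in a setting where 64.8% of all genes were lower. In the TOR and insulin pathway, which sets growth by nutrient state, 13 of 21 genes were higher with a median of 0.03. There Pdk1, the kinase that activates Akt and S6k, lay at 10.97, 10.78 and 11.01 in the Mnt arrays, against 10.78, 10.73 and 10.57 in the controls, which just overlap (0.23 ± 0.08, SE, n = 3 per group).

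Other polymerase and nucleotide genes were looked at because Polr2E and ras had come up, in lists made after values were seen. Of 7 RNA polymerase II subunit genes 6 were lower with a median of -0.12. Polr2L, also shared with the other nuclear polymerases, lay at 9.55, 9.30 and 9.13 in the Mnt arrays, against 9.65, 9.70 and 9.83 in the controls (-0.40 ± 0.15, SE, n = 3 per group). Of 9 genes of purine nucleotide synthesis 8 were lower with a median of -0.08, and ras was the only one with an unadjusted p under 0.05.

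**Figure D3:**
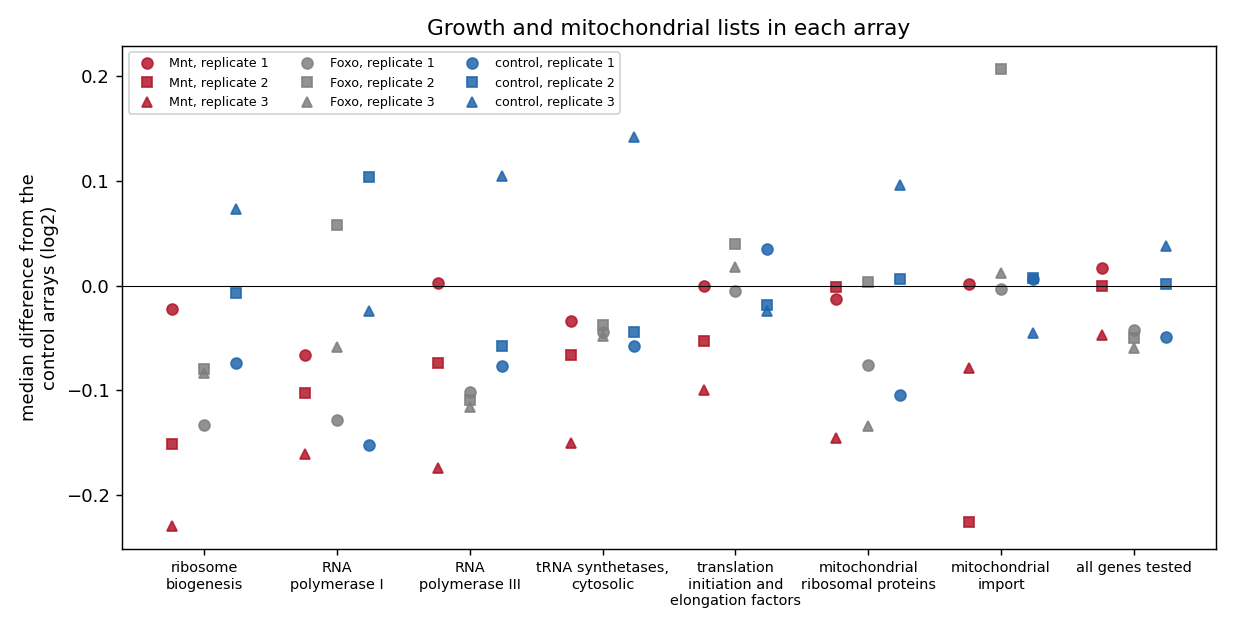
Median difference of 7 growth and mitochondrial gene lists and of all genes tested from the control arrays, on the log2 scale (vertical axis), with 1 point per array in Mnt (red), Foxo (grey) and control (blue) muscle. Mnt and Foxo arrays are set against the mean of the 3 controls and each control against the mean of the other 2, and for ribosome biogenesis Mnt replicates 2 and 3 lie at -0.15 and -0.23 while Mnt replicate 1 lies at -0.02.

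Genes that supply mitochondria with proteins held several of the lower values. Of 28 mitochondrial import genes 16 were lower with a median of -0.05, while leaving out control replicate 2 gave -0.03 and leaving out Mnt replicate 3 gave -0.12. Fold changes ran from -0.30 to 0.69, and the list also counts paralogs such as tomboy20, tomboy40, ttm2 and ttm3. The part of these paralogs in the count was not tested. In Foxo minus control 11 of the 28 were lower, with a median of 0.06. An unadjusted p under 0.05 was found for 6 of the 28 (21.4%, against 3.54% of all genes), all lower. Besides Tom20 these were mge, the fly Tom22 receptor (-0.26 ± 0.07), Tom7 (-0.13 ± 0.06), the channel gene Tim23 (-0.24 ± 0.09), Roe1, a GrpE homologue of the import motor (-0.28 ± 0.07), and CG7394 (-0.24 ± 0.06, SE, n = 3 per group). For example, mge lay at 10.28, 10.24 and 10.33 in the Mnt arrays, against 10.60, 10.52 and 10.52 in the controls. Groups did not overlap for 7 import genes, all lower (25%, against 5.24% of all genes), the added one being Tim17b.

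Of 73 mitochondrial ribosomal protein genes 46 were lower and 27 higher with a median of -0.06. For Foxo minus control 54 of the 73 were lower, with a median of -0.08. Here 10 lower genes and 1 higher gene had an unadjusted p under 0.05, together 15.1%, against 3.54% of all genes. mRpL40 lay at 8.90, 8.69 and 8.48 in the Mnt arrays, against 8.98, 9.05 and 9.10 in the controls, and mRpL47 at 9.77, 9.79 and 9.69, against 9.94, 9.92 and 10.04 in the controls. Their fold changes were -0.35 ± 0.10 and -0.21 ± 0.06 (SE, n = 3 per group), and the second probe set of mRpL47 had -0.26. The higher gene was mRpS9 (0.14 ± 0.06). The list shift rested on few arrays, with medians of -0.01, 0.00 and -0.15 in Mnt replicates 1, 2 and 3, and it was -0.01 without Mnt replicate 3 and -0.02 without control replicate 3. In a list made after values were seen, 6 of 9 genes of mitochondrial DNA upkeep and transcription were lower, among them the mitochondrial RNA polymerase gene PolrMT (-0.31 ± 0.11), while the termination factor gene mTTF had 0.14 ± 0.06.

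Of 80 respiratory chain genes 49 were higher and 31 lower with a median of 0.02, and with each array centred on its median 29 were higher and 51 lower. The list was matched by name and also counts paralogs of subunit genes, such as ND-20L, COX4L and ATPsynCF6L. Fold changes ran from -0.25 to 0.90, and the part of these paralogs in the split was not tested. Groups did not overlap for 8, all lower (10%, against 5.24% of all genes). An unadjusted p under 0.05 was found for 3 (3.75%, near the 3.54% of all genes), namely SdhB, the iron-sulphur subunit of complex II (-0.15 ± 0.05), and the complex I genes ND-13A (-0.16 ± 0.07) and ND-B22 (-0.17 ± 0.07, SE, n = 3 per group). Among 16 glycolysis genes 9 were higher, 7 lower and none had an unadjusted p under 0.05, with Gapdh1 at 0.00 ± 0.08. Of 16 citric acid cycle genes 10 were higher with a median of 0.02, which was -0.02 with centring, -0.02 without control replicate 1, 0.00 without Mnt replicate 2 and -0.04 without Mnt replicate 3. SdhB was the only one with an unadjusted p under 0.05 (6.25%, against 3.54% of all genes). SdhB and SdhC (-0.10) were the 2 without overlap, both lower (12.5%, against 5.24% of all genes).

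The mean signal of 27 sarcomere genes was 12.44 to 12.71 in the Mnt arrays, against 12.40 to 12.52 in the controls, so that markers of the labelled tissue were bright in every array. Of these, 20 were higher and 7 lower with a median of 0.06. Strn-Mlck, a titin-like kinase gene, lay at 12.68, 12.80 and 12.69 in the Mnt arrays, against 12.27, 12.20 and 12.33 in the controls. Its fold change was 0.45 ± 0.11 (SE, n = 3 per group), but its 2 other probe sets had 0.02 and -0.12. At the probe set used, Foxo minus control was 0.52. Zasp52, a Z-disc protein gene, was higher without overlap by 0.09 ± 0.05, and Mf (-0.12 ± 0.08) and Mlp84B (-0.08 ± 0.07), a muscle LIM protein gene, were lower without overlap. In all, groups did not overlap for 2 higher genes (7.41%, against 3.67% of all genes) and 2 lower ones (7.41%, against 5.24%).

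Of 20 genes of muscle excitation and calcium handling 13 were higher with a median of 0.05. The median was 0.02 without control replicate 1 and 0.00, with 10 genes on each side, after centring each array on its median. In the uncentred fit 4 (20%, against 1.58% of all genes) were higher with an unadjusted p under 0.05, and after centring 0 were. Calx, the sodium-calcium exchanger gene, lay at 9.76, 9.92 and 9.94 in the Mnt arrays, against 9.48, 9.66 and 9.56 in the controls. Ca-alpha1D, the voltage-gated calcium channel of fly muscle, lay at 9.93, 9.88 and 9.96 in the Mnt arrays, against 9.59, 9.71 and 9.66 in the controls. Neither gene overlapped between groups, with fold changes of 0.30 ± 0.09 for Calx and 0.27 ± 0.08 for Ca-alpha1D (SE, n = 3 per group). The other 2 were nrv2, a sodium pump subunit gene (0.19 ± 0.07), and the Shaker potassium channel gene Sh (0.18 ± 0.07). All 4 had a limma adjusted p of 0.999. Foxo minus control, with the same controls, gave 0.11 for Calx, 0.17 for Ca-alpha1D, -0.04 for nrv2 and -0.09 for Sh.

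Secreted factors were examined as possible messengers from muscle to other tissues. Of 35 measured genes 14 were higher and 21 lower with a median of -0.03. Gbp2, a growth-blocking peptide gene, lay at 11.32, 11.59 and 11.29 in the Mnt arrays, against 11.03, 10.98 and 11.06 in the controls (0.38 ± 0.13, SE, n = 3 per group, limma adjusted p = 0.999). Pvf1, a ligand of the fly PDGF and VEGF receptor, had -0.15 ± 0.07 without overlap. The gene of the muscle-made TGF-beta ligand myoglianin, myo, lay at 5.92, 5.53 and 6.00 in the Mnt arrays, against 5.49, 5.80 and 5.48 in the controls. The groups of myo overlapped, and its fold change was 0.22 ± 0.17.

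Glutathione and redox genes were higher more often than lower, with 29 of 48 above 0 (60.4%, against 49.5% of all genes) and a median of 0.06. Those with an unadjusted p under 0.05 were 5, all higher (10.4%, against 1.58% of all genes higher). Groups did not overlap for 6 higher genes (12.5%, against 3.67% of all genes) and 3 lower ones (6.25%, near the 5.24% of all genes). Besides GstD9 and GstD2, which are described above, GstD3 lay at 8.91, 8.63 and 8.59 in the Mnt arrays, against 8.29, 8.20 and 8.51 in the controls. Sod2, the mitochondrial superoxide dismutase gene, lay at 13.05, 12.99 and 13.13 in the Mnt arrays, against 12.87, 12.85 and 12.94 in the controls. GstD3 had 0.37 ± 0.11, Sod2 0.17 ± 0.05 and GstO2, an omega-class transferase gene, 0.31 ± 0.11 (SE, n = 3 per group). GstS1 was the sixth without overlap (0.56 ± 0.25), and the 3 lower ones were GstD11 (-0.32 ± 0.14), GstE12 (-0.09 ± 0.06) and the extracellular dismutase gene Sod3 (-0.22 ± 0.10). The GstD genes are close paralogs, and how far their probe sets share signal was not tested. The list median was -0.01 without control replicate 1, with 24 genes on each side.

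Of 19 chaperone genes 13 were lower with a median of -0.08, which was -0.03 without Mnt replicate 2. The small heat shock protein gene CG4461 (-0.26 ± 0.07) and Droj2, a DnaJ co-chaperone gene (-0.26 ± 0.08), had an unadjusted p under 0.05 (10.5%, against 3.54% of all genes). Foxo minus control was -0.11 for Droj2 and -0.55 for CG4461, which passed there (limma adjusted p = 0.039). Proteasome genes were split into 21 higher and 19 lower, and autophagy and lysosome genes into 17 higher and 13 lower, each with none at an unadjusted p under 0.05. The proteasome subunit gene Prosbeta5 had -0.01 ± 0.05 and the autophagosome gene Atg8a -0.03 ± 0.06. Of 30 immune genes 19 were lower with a median of -0.06. An unadjusted p under 0.05 was found for 2 (6.67%, against 3.54% of all genes). Groups did not overlap for 2 lower ones (6.67%, near the 5.24% of all genes). Besides PGRP-SB1, DptB, an antibacterial peptide gene, had an unadjusted p under 0.05, at 8.14, 7.57 and 7.69 in the Mnt arrays, against 8.60, 9.79 and 7.89 in the controls (-0.96 ± 0.42, SE, n = 3 per group). The controls of DptB were spread over nearly 2 units, and their lowest array lay inside the range of the Mnt arrays. Without control replicate 2, the highest, the fold change of DptB was -0.45. The antifungal peptide gene Drs had -0.22 ± 0.10, with groups that did not overlap. Of 11 clock genes 6 were higher, with vri, a repressor of the clock, at 0.13 ± 0.13.

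**Figure D4:**
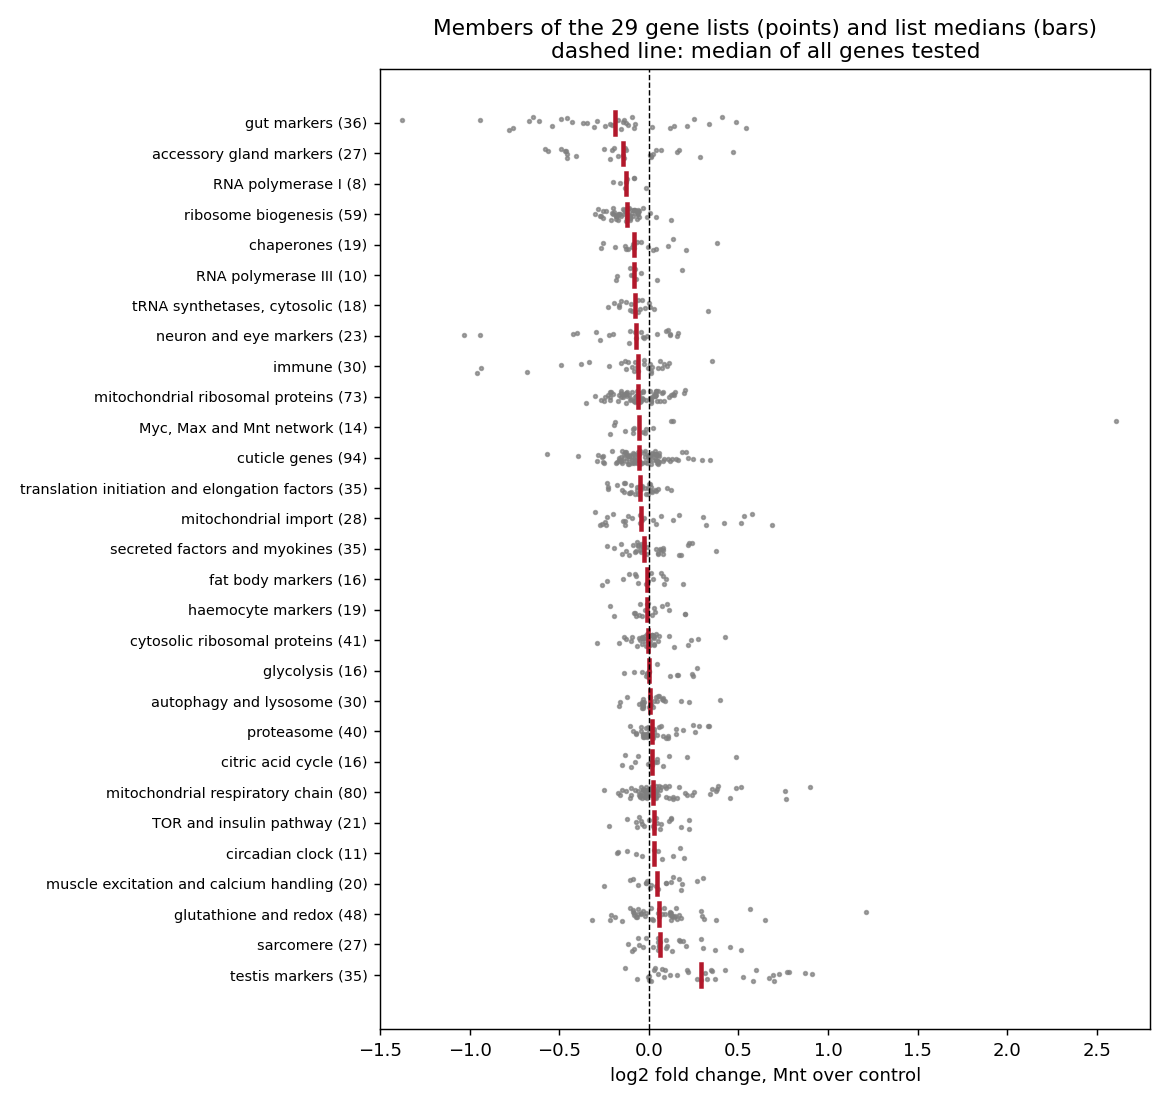
Log2 fold change of Mnt over control (horizontal axis) for each member (grey points) of the 29 gene lists (vertical axis, number measured in brackets), with the list median as a red bar and the median of all genes tested as a dashed line. The RNA polymerase I and ribosome biogenesis points lie almost wholly left of the dashed line, and the testis markers spread to the right.

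Testis, gut and accessory gland markers varied more between arrays of a group than between the groups. Testis markers were higher in 32 of 35 genes with a median of 0.29, but leaving out control replicate 3 gave a median of 0.00 and leaving out Mnt replicate 3 one of -0.11. Gut markers were lower in 27 of 36 genes with a median of -0.19, where Mnt replicate 1 had 35 of 36 below the control mean and Mnt replicates 2 and 3 had 17 and 14, and the median was 0.05 without Mnt replicate 1. Accessory gland markers had a mean of 5.25, 4.34 and 4.15 in the Mnt arrays, against 5.34, 4.30 and 4.57 in the controls. The fat body list, at 8.91 to 9.37 in the Mnt arrays, against 8.87 to 9.32 in the controls, and the haemocyte list, at 7.22 to 7.44, against 7.26 to 7.45 in the controls, overlapped closely. Neuron and eye markers were lower in 16 of 23 genes with a median of -0.07, which was 0.04 without Mnt replicate 3. Groups did not overlap for 6 of them lower (26.1%, against 5.24% of all genes) and 3 higher (13%, against 3.67%). Single markers of lowest p were twe of the testis (0.35 ± 0.14), ChAT of cholinergic neurons (0.16 ± 0.06), and the eye genes chp (-0.42 ± 0.12) and trp (-0.40 ± 0.16). Twe, chp and trp lay at most at 4.77 in the arrays of both groups, which is near the lower quartile of all probe sets at 4.22 to 4.32. Of 94 cuticle genes 60 were lower with a median of -0.05, and the 2 of lowest p, Cpr78Cb (-0.17 ± 0.06) and Cpr49Aa (-0.39 ± 0.16), were as dim. The part of other tissues in the results above was examined only through the testis score.

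**Figure D5:**
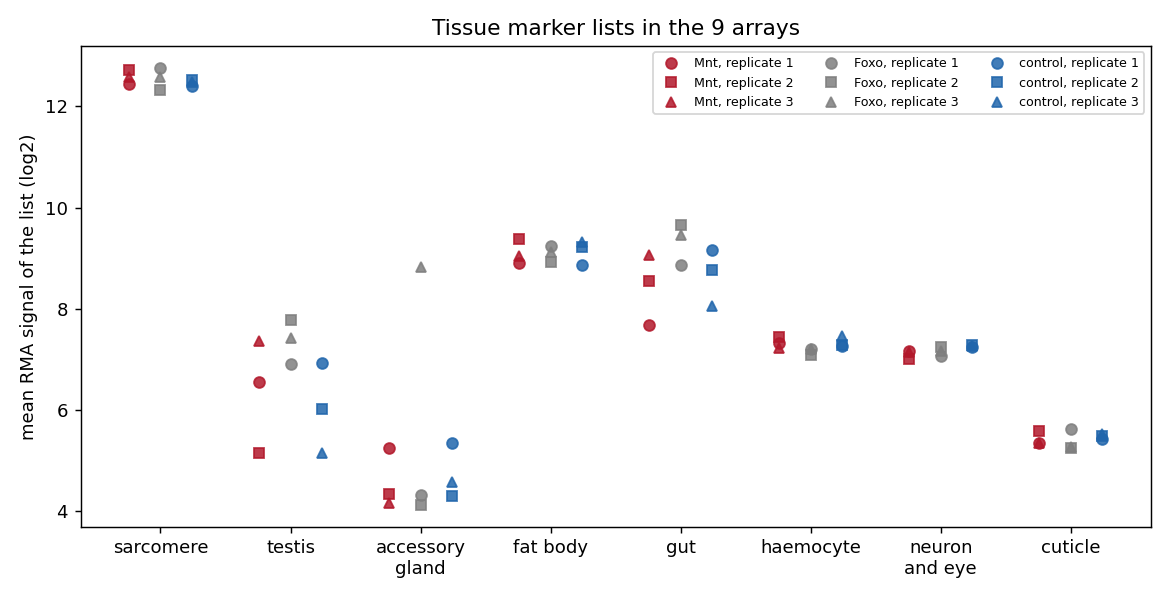
Mean RMA signal on the log2 scale (vertical axis) of 8 tissue marker lists (horizontal axis) in Mnt (red), Foxo (grey) and control (blue) muscle, 1 point per array. Sarcomere genes stay between 12.32 and 12.76 in all 9 arrays, while testis and gut markers spread by over 1 unit within the Mnt and the control group, and the neuron and eye list is the one whose Mnt and control arrays do not overlap.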

How the data were processed

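The authors deposited log2 signals made with RMA, per the submitters' processing notes, for 18952 probe sets, with values from 2.62 to 14.84. The sources used here do not give its version. Control probe sets (183) were left out. The platform annotation names 1 gene for 13647 probe sets, several for 402, and does not list 4720. By Entrez identifier 13544 matched the Release 6 plus ISO1 MT annotation, with 0 symbols changed. Where a gene had several single-gene probe sets, the one of highest mean over the 9 arrays was used.

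Groups came from the sample titles. Genes were tested two-sided with limma 3.58.1 in R 4.3.3 (lmFit, eBayes with an intensity trend) in a means model over all 9 arrays, with 6 residual degrees of freedom. Errors are moderated standard errors. The 3 arrays per group limit the precision, and an exact permutation test of 3 against 3 cannot go below p = 0.1. On simulated data for the 11982 genes the test of Mnt versus control recovered 82 of 100 genes changed by 1 and 92 of 100 changed by 2, with 13 false calls among 187. The simulation gave each gene independent noise and shifted all Mnt arrays by the same amount. Real arrays share part of their spread, and most differences described here are below 1, so these rates do not give the power in these data.

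The members and the 29 gene lists (921 members measured) were chosen with earlier results of these data known, and wrongly matched names were taken out of the lists after the files were read. The rule named every measured network gene, the 10 higher and 10 lower genes of lowest p and the 5 of largest size in each direction, among those of at least median signal (6.90) without overlap, and up to 2 members per direction of a list with an unadjusted p under 0.05, or else its member of highest signal. Other genes are named because a count holds 5 or fewer, or after their values were seen. The lists of RNA polymerase II, purine synthesis, mitochondrial DNA, maltase, transporter and activity-regulated genes were added after seeing the data. Of the transporter list, which holds chk, 7 of 10 were higher with a median of 0.10. The labels give no batch and do not say if same-numbered arrays belong together. Replicate numbers were therefore not used as a block in the main fit. In all, 23 alternative settings were tried.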

Additional observations from a re-analysis of the deposited data

Results flagged for a closer look

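Arc2 was picked out because its effect differed between the overexpression groups by a test of the difference itself. In limma's Mnt minus Foxo comparison it had a log2 difference of 1.34 ± 0.16 (SE, n = 3 per group, adjusted p = 0.0328), with Mnt minus control at 0.85 and Foxo minus control at -0.49. All 3 Mnt arrays lay above, and the Foxo mean of 7.502 lay below, the 3 controls. Over the 18 settings tried for Arc2 the difference stayed between 1.24 and 1.47, and its call ended in 11 of the 18.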

How the results depend on the processing

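In limma's Mnt minus control test the number of genes past the threshold was 0 under the alternatives tried, including adjusted p under 0.1, except that it was 1 without Mnt replicate 1, which was Mnt itself (log2 fold change 3.22). The Mnt fold change stayed between 2.29 and 3.22, and without probe sets ending in _s_at or _x_at it gave no value. Genes with an unadjusted p under 0.05 numbered 668 and genes without overlap 1727 when all 18769 probe sets were tested, and 253 and 3488 without Mnt replicate 2 and control replicate 3. With 1 array left out in turn the 2 counts ran from 299 to 469 and from 1068 to 2532. Fewer arrays make groups without overlap more frequent by construction.

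With the replicate number as a block, limma called 0 genes, 297 had an unadjusted p under 0.05, and the Mnt fold change stayed at 2.61 with an adjusted p of 0.817. Same-numbered Mnt and control arrays correlated at 0.004, 0.106 and -0.703 in their deviations from the group means. The labels do not say if same-numbered arrays belong together. These correlations cannot decide it, since testis and gut signal also differed between arrays of a group. The Arc2 call between Mnt and Foxo, a result added after seeing the data, ended with the block (adjusted p = 0.102), without the intensity trend (0.0527), with the testis covariate (0.0774) and without Mnt replicate 2 and control replicate 3 (0.118).

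Centring each array on its median placed 64.8% of all genes below 0 and moved the median over all genes to -0.04. Of the named genes only values near 0, jim and Mst57Da changed sign, and the cause was not tested. jim had 0.057 without probe sets ending in _s_at or _x_at. With array weights Prosbeta5 had 0.0085 and Mst57Da 0.10, and with centring Kdm5 had -0.022. The testis score as covariate gave 0.0095 for Tip60, 0.0088 for puf, 0.012 for Gapdh1 and 0.034 for Col4a1. Leaving out Mnt replicate 2 and control replicate 3 together gave 0.024 for Tip60, 0.028 for pont, -0.039 for Kdm5, 0.0069 for ago, 0.024 for Tif-IA and 0.0052 for Gapdh1. With 1 array left out the values ran from -0.036 to 0.023 for Prosbeta5, from -1.35 to 0.17 for Mst57Da, from -0.0299 to 0.0928 for Kdm5, from -0.0705 to 0.0592 for Tip60, from -0.093 to 0.10 for puf, from -0.053 to 0.065 for Gapdh1, from -0.17 to 0.061 for Col4a1, from -0.16 to 0.0196 for pont, from -0.093 to 0.031 for ago and from -0.073 to 0.0601 for Tif-IA. Among the values of single named genes, 1545 others kept their direction and side of the threshold. Signal over background limits the dim genes brat, twe, chp, trp, Cpr78Cb and Cpr49Aa.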
